A study of Mus musculus with 55 samples.

Results

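The nuclear genes for the proteins of the mitochondrial ribosome were followed through the exit from mitosis in mouse embryonic stem cells. They were taken as every listed gene whose symbol starts with Mrpl or Mrps followed by a number, a rule that uses no measured value. This gave 74 genes in each of both deposited tables, out of 9911 genes listed for CCNA-GFP cells and 10237 for CTCF-AID cells. By symbol, 46 were counted as large subunit (Mrpl) and 28 as small subunit (Mrps). Membership of the ribosome was read from the symbol alone and was not checked for each gene. The measurement was the abundance of each gene's pre-mRNA, the unspliced transcript, in TPM, the length-corrected share of all transcripts sequenced in a library. All cells were E14Tg2a embryonic stem cells of the 129/Ola mouse strain, grown in serum with LIF, a cytokine that keeps them undifferentiated. CCNA-GFP cells carry a fluorescent reporter of cyclin A, and CTCF-AID cells (1 clone, EN52.9.1) carry a degron on CTCF, the protein that binds insulators and chromatin loop anchors, so that the auxin IAA triggers its degradation. Both lines were held with RO-3306, a CDK1 inhibitor, at 10 µM for 4 h, then with nocodazole, which depolymerises microtubules, at 50 ng/ml for 4 h. Mitotic cells were shaken off and either collected or washed and released. In the arm with IAA (+IAA), 0.5 mM was added for the last 2 h before release and kept through the release, and the labels give 2 h for every library with IAA. By the study's methods asynchronous cells received IAA for 4 h instead, so their exposure is uncertain. The other arm of this line (-IAA) received none, and CCNA-GFP cells received none.

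There were 19 CCNA-GFP libraries and 36 CTCF-AID libraries, 18 in each arm. Asynchronous and mitotic groups had 3 libraries each, and groups at 20, 30, 40, 60, 90 and 120 min after release in CCNA-GFP cells, or at 20, 40, 50, 60, 90 and 120 min in CTCF-AID cells, had 2 each. CCNA-GFP cells at 50 min had 1 library and enter no test. The comparisons address which genes resume transcription at which time after mitosis, and whether the presence of CTCF changes that. Removal of the CTCF protein leaves its transcript in place, so RNA does not check the depletion, which was not measured here. The study reported loss of CTCF with auxin by Western blot, in interphase and in mitosis.

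Mitochondrial ribosomes translate the few proteins encoded in mitochondrial DNA, all of them subunits of the respiratory chain or of ATP synthase. Their RNA comes from mitochondria, whereas all of their proteins are encoded in the nucleus, made in the cytosol and imported. Many of these proteins are descended from ribosomal proteins of the bacterial ancestor of mitochondria, and others have no bacterial counterpart. Embryonic stem cells draw much of their energy from glycolysis while keeping active mitochondria, and the mitochondrial ribosome proteins are housekeeping genes in them.

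The depth of a library limits these values, but TPM keeps no read total. The listed pre-mRNA values of a library summed to 13747 to 42576 TPM in CCNA-GFP cells and 17702 to 43370 TPM in CTCF-AID cells, the rest of each library being other transcripts. This sum moved with the stage, from 13747 to 17245 TPM in mitotic CCNA-GFP cells to 30992 to 42576 TPM at 60 min. A change in TPM therefore holds the change of all pre-mRNA together with that of the gene, and the deposited values also carry a factor for each library that the sources used here do not explain. Genes were listed for their level in asynchronous cells or after release and not for their mitotic level, so genes low at mitosis alone could enter and those high at mitosis alone could not. The 74 genes took 0.610% to 0.798% of the summed values over the groups of both lines. In these bulk libraries, fewer cells of a kind and less RNA per cell cannot be told apart. Of 10 embryonic stem cell markers 9 were listed, summing to 30.5 to 124 TPM in CCNA-GFP and 40.8 to 142 TPM in CTCF-AID libraries, and 0 of 6 markers of primitive endoderm. Of 4 trophoblast markers 2 were listed, summing to at most 2.44 TPM in CCNA-GFP and 5.26 TPM in CTCF-AID libraries, and of 3 neural markers 1, at most 1.27 and 2.00 TPM. Of 4 fibroblast markers 0 were listed in CCNA-GFP cells and 2 in CTCF-AID cells, summing to at most 3.42 TPM. These sums moved with the stage too, the trophoblast ones from 0.105 to 0.399 TPM in mitotic CCNA-GFP cells to 1.67 to 2.44 TPM at 60 min, and their part in the results was not tested.

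In asynchronous CCNA-GFP cells the mitochondrial ribosomal protein genes had mean pre-mRNA levels from 0.346 to 11.9 TPM, with a median of 1.85 TPM beside 1.53 TPM over all listed genes. Mrpl24, whose bacterial counterpart sits beside the exit tunnel of the large subunit, was the highest, at 11.1, 9.47 and 15 TPM in the 3 asynchronous libraries. Mrps18b, a small subunit protein, followed with 6.82, 7.14 and 10.8 TPM, and Mrpl10, which anchors the stalk that binds translation factors, with 5.45, 4.86 and 6.60 TPM. The libraries of Mrpl24 and Mrps18b overlapped, and those of Mrpl10 lay below both. The lowest were Mrps26, a small subunit protein without a bacterial counterpart (0.435, 0.253 and 0.349 TPM), and the large subunit proteins Mrpl35 (0.638, 0.415 and 0.698 TPM) and Mrpl34 (0.406, 0.323 and 1.08 TPM), and the ranges of these 3 overlapped. In asynchronous CTCF-AID cells without IAA, Mrpl24 stood at 7.55, 5.93 and 9.94 TPM and Mrps18b at 7.23, 6.43 and 7.77 TPM, so their order was not resolved there. Mrpl34 was listed at 0 in 3 of 3 mitotic libraries of that arm.

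Release from mitosis brought nearly all of these genes up, as it did most of the listed genes. In CCNA-GFP cells the median of the 74 mean levels was 1.05 TPM in mitosis and then 1.18, 1.37, 1.61, 2.66, 3.16 and 2.63 TPM at 20, 30, 40, 60, 90 and 120 min, and the single 50 min library gave 2.78 TPM. In limma's test, blocked on the replicate number, with a Benjamini-Hochberg adjusted p under 0.05, 0 members differed from mitosis at 20 min (background 0% of all listed genes, 2 members at an unadjusted p under 0.05). At 30 min it was again 0 (0.303% of all genes higher, 7 members at an unadjusted p under 0.05). At 40 min 48 of 74 were higher and 0 lower, beside 49.3% of all genes called higher and 0.0404% lower. The count was 27 with no replicate block, for which no share of all genes is given, and was also lower without replicate 1. At 60 min 69 members rose (beside 88.3% of all genes), at 90 min 70 (beside 89.1%) and at 120 min 72 (beside 90.2%). None of the 74 was lower at these stages, beside 0.515%, 0.948% and 0.656% of all genes. The median change of the members on the scale of log2(TPM + 1) was 0.35, 0.84 and 0.81 at 40, 60 and 120 min, beside 0.26, 0.79 and 0.68 for all genes. On this scale the change of a gene with a low level is smaller than the ratio of its TPM values.

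**Figure D1:**
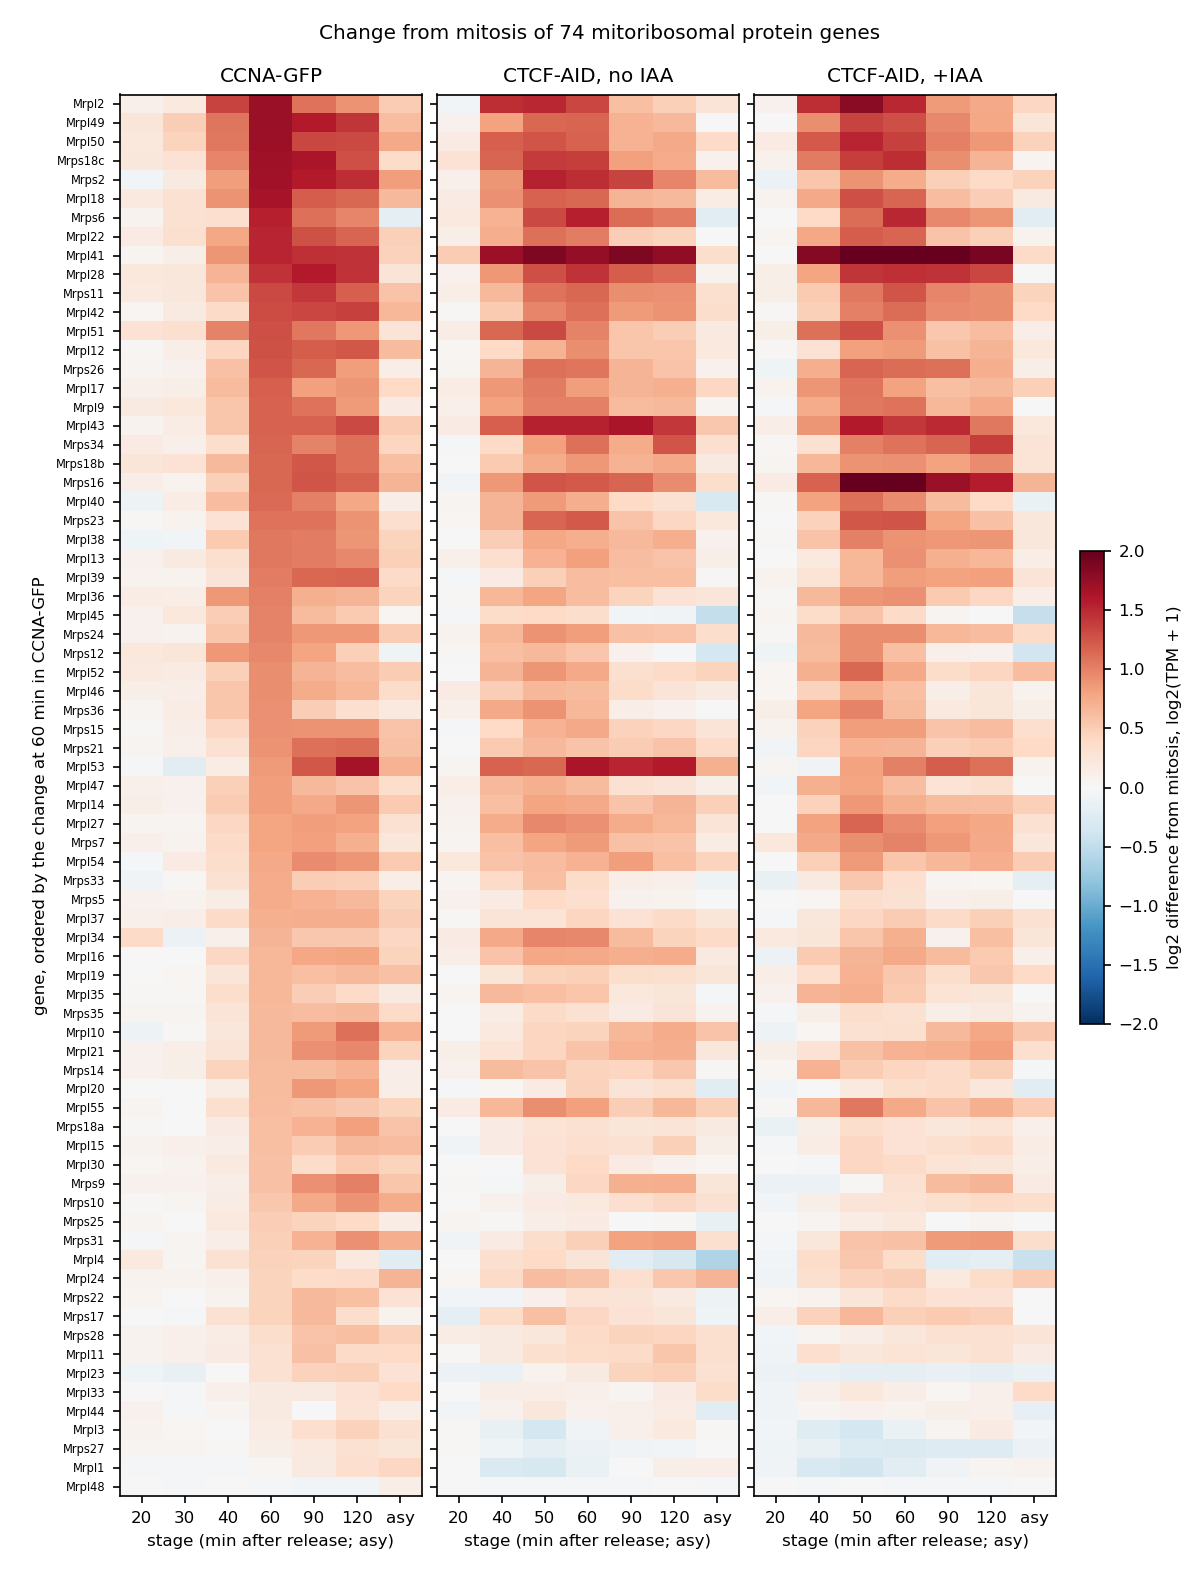
Change from mitosis on the scale of log2(TPM + 1), shown as colour, for the 74 mitochondrial ribosomal protein genes (vertical) at each stage (horizontal) in CCNA-GFP cells and both CTCF-AID arms; genes are ordered by the CCNA-GFP change at 60 min. Colour is near zero at 20 min and deepens from 40 min for most genes, from Mrpl2 (1.73 at 60 min) at one end to Mrpl48 (-0.02) at the other.

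The same held in CTCF-AID cells. Without IAA, 0 members were called by limma at 20 min (0% of all genes, 1 member at an unadjusted p under 0.05), and 54, 62 and 66 were higher than in mitosis at 40, 50 and 60 min (beside 63.3%, 79.1% and 84.8% of all genes). With IAA the counts were 0 at 20 min (0%, and 0 members at an unadjusted p under 0.05), then 50, 64 and 66 at the same times (58.7%, 78.2% and 82.2%). At 90 and 120 min the count was 60 (74.8%) and 61 (69.6%) without IAA, and 56 (73.8%) and 61 (68.2%) with it. The member medians at 60 min were 0.65 without and 0.70 with IAA, beside 0.63 over all genes in each arm. The listed sum rose with these genes, and with every library scaled to the same sum the median of all genes at 60 min moved from 0.79 to 0.02 in CCNA-GFP cells. Relative to that shift, 26 members were higher and 26 lower than in mitosis at 60 min in CCNA-GFP cells (all genes 36.4% and 33.3%), with a member median of 0.03. In the -IAA arm this scaling left 28 higher and 27 lower (all genes 39.4% and 31.1%), and in the +IAA arm 28 higher and 25 lower (40.7% and 33.2%). At 40 min the same scaling left 21 higher and 19 lower in CCNA-GFP cells (all genes 23.7% and 31.3%) and 28 higher and 25 lower without IAA (33.3% and 36.7%).

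Both subunits took part, and they were not tested against each other. At 60 min in CCNA-GFP cells 42 of 46 large subunit genes and 27 of 28 small subunit genes rose, beside 88.3% of all genes, each with a median of 0.84. Members on a list of genes with a bacterial counterpart rose in 44 of 46 cases (median 0.76). The members not on it, counted as without a counterpart, rose in 25 of 28 (median 0.93). The list was not checked against sequence, and these counts are read beside the same share of all genes and as a description. Without IAA in CTCF-AID cells the medians at 60 min were 0.71 for the large and 0.57 for the small subunit, and 0.63 and 0.67 for genes with and without a bacterial counterpart.

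The 5 members with the largest rise at 60 min in CCNA-GFP cells were Mrpl2, Mrpl49, Mrpl50, Mrps18c and Mrps2. Mrpl2, whose bacterial counterpart lies at the peptidyl transferase centre, was at 1.32, 0.698 and 1.49 TPM in mitosis and at 6.09 and 5.48 TPM at 60 min, a log2 change of 1.73 ± 0.13 (SE; limma, adjusted p = 2.79e-10). It was already at 4.71 and 3.75 TPM at 40 min. Mrpl49, which has no bacterial counterpart, went from 1.71, 1.40 and 1.72 TPM to 8.41 and 6.15 TPM (1.73 ± 0.14). Neither gene had a 60 min library within its mitotic range, nor did the next 3. Mrpl50, also without a bacterial counterpart, rose from 0.941, 0.631 and 0.956 TPM to 5.71 and 3.85 TPM (1.71 ± 0.10). Mrps18c, a relative of Mrps18b, rose from 1.01, 0.731 and 1.21 TPM to 5.67 and 4.42 TPM (1.69 ± 0.12). Mrps2, a protein of the head of the small subunit, rose from 0.557, 0.565 and 0.253 TPM to 4.79 and 2.58 TPM (1.68 ± 0.17). In CTCF-AID cells without IAA the changes of these 5 genes at 60 min were 1.34, 1.16, 1.19, 1.39 and 1.48 in the same order. With IAA they were 1.50, 1.29, 1.37 and 1.47, and 0.74 for Mrps2. Mrpl41, singled out after its values were seen as the largest rise in CTCF-AID cells, went from 1.54, 0.415 and 0.544 TPM to 5.31 and 4.72 TPM without IAA (1.76 ± 0.20), and from 0.511, 0.564 and 0.676 TPM to 6.15 and 6.62 TPM with it (2.22 ± 0.20). Its lowest library at 60 min was above its highest mitotic one in both arms.

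A few genes hardly moved. Mrpl48, a large subunit protein, was at 0.592, 0.565 and 0.619 TPM in mitosis and at 0.495 and 0.566 TPM at 60 min in CCNA-GFP cells, a change of -0.02 ± 0.07 (adjusted p = 0.770, limma), and was called higher at no stage of any arm. Mrpl1, of the mobile stalk through which spent tRNA leaves the ribosome in bacteria, was at 1.39, 1.23 and 1.57 TPM and then at 1.56 and 1.17 TPM (0.04 ± 0.09). In both genes 1 library at 60 min lay below the mitotic range and the other within it. Mrps27, a pentatricopeptide repeat protein of the small subunit, gave 2.79, 2.42 and 3.60 TPM and then 3.54 and 2.26 TPM (0.11 ± 0.12). Mrpl3, which lies near the peptidyl transferase centre in bacteria, gave 1.29, 0.996 and 1.32 TPM and then 1.67 and 1.03 TPM (0.15 ± 0.10). Mrpl44, a large subunit protein related to RNase III, gave 0.976, 0.698 and 0.703 TPM and then 1.29 and 0.778 TPM (0.18 ± 0.09). None of these 5 passed the test at 60 min. Mrpl3 first passed at 90 min and Mrpl1, Mrpl44 and Mrps27 at 120 min in CCNA-GFP cells. With libraries scaled to the same sum, 4 of the 5 turned to lower than mitosis at 60 min, Mrps27 at -0.92, Mrpl1 at -0.78, Mrpl3 at -0.64 and Mrpl44 at -0.50.

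The stage of the first higher call is set side by side for the lines, with no test. In CCNA-GFP cells, where 50 min could not be tested, 48 members were first called at 40 min (64.9%, beside 49.0% of all genes) and 21 at 60 min (28.4%, beside 39.0%). In CTCF-AID cells without IAA 54, 8 and 5 were first called at 40, 50 and 60 min (73.0%, 10.8% and 6.76%, beside 63.3%, 16.1% and 6.75% of all genes), and Mrpl1, Mrpl48 and Mrps27 at no stage. All 48 genes called at 40 min in CCNA-GFP cells were among the 54 called in CTCF-AID cells without IAA (100% of the first list and 88.9% of the second). Over all genes of both tables the calls shared were 96.7% of the first list and 76.3% of the second. With IAA 50, 14 and 3 genes were first called at these times (67.6%, 18.9% and 4.05%, beside 58.7%, 19.8% and 5.76% of all genes), and Mrpl1, Mrpl23, Mrpl44, Mrpl48 and Mrps27 at no stage.

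In the blocked test on the deposited values some genes were called lower than in mitosis, all of them in CTCF-AID cells. Mrpl1 fell by 0.28 at 40 min and by 0.31 at 50 min without IAA, and by 0.30, 0.37 and 0.22 at 40, 50 and 60 min with IAA. Mrpl3 fell by 0.36 at 50 min in each arm and by 0.24 at 40 min with IAA. With IAA Mrps27 fell, by 0.28, 0.29, 0.25 and 0.25 at 50, 60, 90 and 120 min, and it passed at no stage without IAA, and was not called between the arms. Mrpl23 fell by 0.20 at 50 min with IAA. Mrpl4, whose bacterial counterpart lines the exit tunnel, fell by 0.32 at 120 min without IAA, and in asynchronous cells by 0.60 without and 0.44 with IAA. The other calls were in asynchronous cells against mitosis: Mrpl45, a large subunit protein that faces the inner membrane (-0.48 and -0.46 without and with IAA), Mrps12, of the decoding centre (-0.36 and -0.39), Mrpl44 (-0.21 and -0.17), Mrpl40 (-0.30 without IAA) and Mrps33 (-0.17 with IAA). With no replicate block the calls of Mrpl1, Mrpl3 and Mrpl45 were kept, as were those of Mrps27 at 60 min and of Mrpl4 in asynchronous cells without IAA, and the others were lost. Without IAA the members called lower numbered 1, 2, 0, 0 and 1 at 40, 50, 60, 90 and 120 min (3.21%, 4.56%, 2.7%, 3.37% and 3.15% of all genes) and 5 in asynchronous cells (5.25%). With IAA they numbered 2, 4, 2, 1 and 1 at those stages (3.87%, 5.37%, 4.04%, 4.41% and 4.42%) and 5 in asynchronous cells (5.89%). Higher in asynchronous cells than in mitosis were 57 members in CCNA-GFP cells (70.4% of all genes), 31 without IAA (34.3%) and 26 with it (40.9%).

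The change after mitosis ran with gene length, in these genes as in all listed genes. Gene lengths, from the Gencode M21 annotation of GRCm38, ran from 789 bp (Mrpl34) to 121773 bp (Mrps28). At 40 min in CCNA-GFP cells the median change was 0.52 for 24 members under 5 kb, 0.39 for 35 of 5 to 15 kb, 0.21 for 8 of 15 to 50 kb and 0.11 for 7 over 50 kb, beside 0.54, 0.42, 0.26 and 0.09 over all genes of these lengths. Called higher were 19 of 24, 25 of 35, 3 of 8 and 1 of 7, beside 75.5%, 70.7%, 50.2% and 14.3% of all genes of these lengths. At 60 min the members' medians were 1.13, 0.79, 0.69 and 0.18, beside 1.00, 0.95, 0.84 and 0.46. The 7 longest were Mrpl1, Mrpl33, Mrpl48, Mrps27, Mrps28, Mrps6 and Mrps9, and so included 3 of the genes that hardly moved. At 60 min in CCNA-GFP cells 4 of these 7 were called higher, beside 72.5% of all genes over 50 kb. Mrps6 had the largest rise among the 7, of 1.55 ± 0.13. The annotation places the gene Slc5a3 within Mrps6 on the same strand, so that their intronic reads cannot be told apart. Across the 74 genes in CCNA-GFP cells Spearman's rho of change with length was -0.49, -0.42 and -0.28 at 40, 60 and 120 min, and -0.11 for asynchronous cells against mitosis. All listed genes gave -0.54, -0.37, -0.23 and 0.00. In CTCF-AID cells without IAA the members gave -0.63, -0.58, -0.36 and -0.28 in the same order, beside -0.59, -0.37, -0.28 and -0.09 for all genes. These are descriptions, since genes share the same libraries and mitotic values, and the length classes were chosen after the data were seen.

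**Figure D2:**
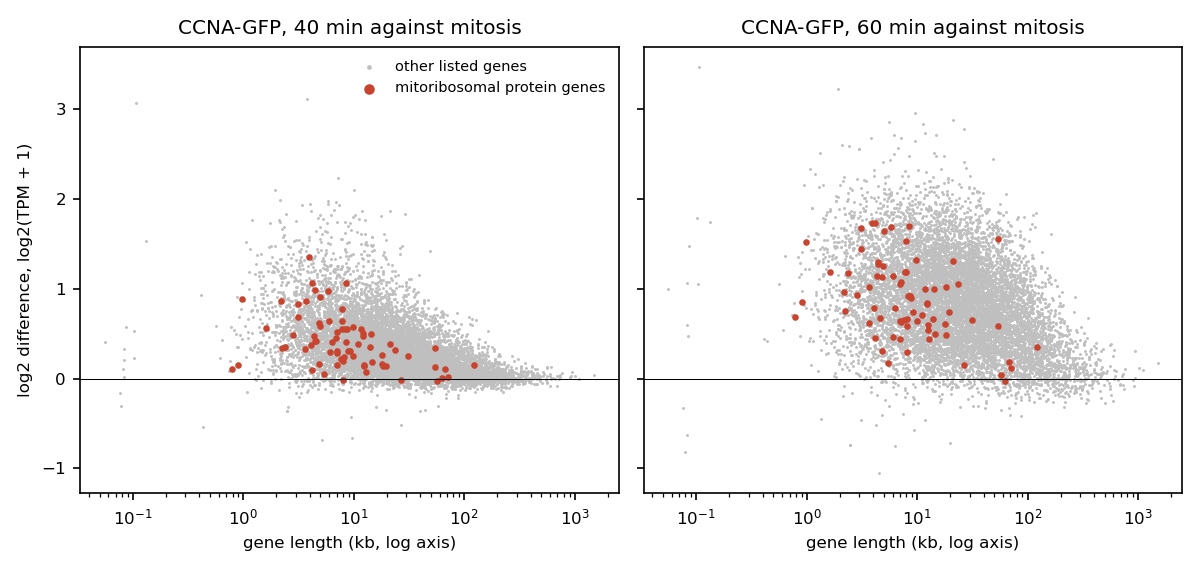
Change from mitosis at 40 and 60 min in CCNA-GFP cells (vertical, log2(TPM + 1)) against gene length (horizontal, log axis) for the 74 members (coloured points) and the other listed genes (grey). Members under 5 kb have a median of 1.13 at 60 min and members over 50 kb one of 0.18.

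The levels after release went above those of asynchronous cells. At 60 min 48 members were higher than in asynchronous CCNA-GFP cells (67% of all genes) and 3 lower (8.6%). Without IAA in CTCF-AID cells 59 were higher (75.2%) and 2 lower (7.06%), and with IAA 57 were higher (72.2%) and 3 lower (8.24%). Mrpl1 and Mrpl33, both large subunit proteins with bacterial counterparts, were lower at 60 min than in asynchronous cells in CCNA-GFP cells (-0.37 and -0.21), without IAA (-0.27 and -0.26) and with IAA (-0.28 and -0.25). With each library divided by its step factor, the factor for each library that its values are multiples of, 26 members were higher and 11 lower in CCNA-GFP cells (all genes 42.1% and 15.3%). With libraries scaled to the same sum 19 were higher and 26 lower (all genes 35% and 35.2%). The highest mean over stages was at 50 min for 47 of 74 members in the -IAA arm (63.5%, beside 48.1% of all genes) and for 51 in the +IAA arm (68.9%, beside 51.2%). In CCNA-GFP cells it was at 90 min for 34 members (45.9%, beside 37.1% of all genes) and in the single 50 min library for 25 (33.8%, beside 21.7%). Mrpl1, Mrpl24 and Mrpl33 had their highest mean in asynchronous cells in both lines without IAA.

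From 60 to 120 min, 20 members fell in CCNA-GFP cells (28.5% of all genes) and 8 rose (9.6%). In CTCF-AID cells 33 fell (53.1%) and 6 rose (7.31%) without IAA, and 28 fell (50.8%) and 5 rose (7.61%) with it. Mrpl2 fell by 0.83 in CCNA-GFP cells, by 0.87 without IAA and by 0.74 with it. Mrpl1, Mrpl3, Mrpl10, Mrps31 and Mrps9 rose in each, Mrpl10 by 0.44, 0.31 and 0.45 and Mrps31 by 0.43, 0.36 and 0.28. The 20 falls in CCNA-GFP cells became 3 with no replicate block, for which no share of all genes is given, and were also fewer without replicate 1. They became 3 with libraries divided by their step factor (13.9% of all genes). With libraries scaled to the same sum 8 members fell and 18 rose (all genes 21.7% and 24.4%). Without IAA the 33 falls became 13 with no replicate block, again with no share of all genes given, and were also fewer without replicate 1. Divided by their step factor, the libraries without IAA gave 37 falls beside 2 rises (all genes 58.9% and 3.92%). With the same sum there were 6 falls beside 25 rises (all genes 26.5% and 25.6%).

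Between the arms of CTCF-AID cells 3 of these genes met the rule for a call. A gene was called at an adjusted p under 0.1 with a log2 difference above 0.2 in size, in asynchronous cells or in at least 2 stages after release in 1 direction, by limma on log2(TPM + 1). It held for Mrps2, Mrpl23 and Mrps16, 3 of 74 members (4.05%), beside 113 of 10237 genes (1.1%). Mrps2 was singled out with results of these data known, so the share of 4.05% includes a gene chosen for its response and is no test. The other members called were Mrpl23 and Mrps16. Mrps2 and Mrpl23 were lower with IAA and Mrps16, another small subunit protein with a bacterial counterpart, was higher. Mrpl23 has a bacterial counterpart at the rim of the exit tunnel.

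Sequence upstream of each of these 3 genes is shown because they are the members that differ between the arms. The Mrps2 gene is on chromosome 2, plus strand (chr2:28468066-28471178, GRCm38), Mrpl23 on chromosome 7, plus strand (chr7:142532686-142540747), and Mrps16 on chromosome 14, minus strand (chr14:20389304-20393634). The sequences, from RefSeq for GRCm38.p6, are the bases before a start site that lie outside Gencode exons, at chr2:28467816-28468065, chr7:142532831-142533011 and chr14:20393635-20393884, read 5′ to 3′ on the strand of the gene. The start site given for Mrpl23 lies inside the Gencode gene, so its stretch is intronic for another annotated start. The core of the CTCF motif, searched as a fixed pattern with no mismatch allowed, occurs in none of the 3 on either strand, so they hold no capitals. A site that departs from this pattern would be missed, so CTCF sites are not shown to be absent. For Mrpl23 the bases before the start of the Gencode gene were not searched.
Mrps2: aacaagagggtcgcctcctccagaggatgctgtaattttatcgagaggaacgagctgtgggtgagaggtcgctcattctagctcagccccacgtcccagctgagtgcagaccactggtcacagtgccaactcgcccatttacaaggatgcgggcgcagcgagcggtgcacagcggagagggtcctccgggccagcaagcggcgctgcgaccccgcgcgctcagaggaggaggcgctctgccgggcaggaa
Mrpl23: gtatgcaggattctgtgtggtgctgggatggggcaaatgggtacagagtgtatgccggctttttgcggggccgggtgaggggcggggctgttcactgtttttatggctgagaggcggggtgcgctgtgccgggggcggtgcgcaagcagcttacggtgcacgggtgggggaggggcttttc
Mrps16: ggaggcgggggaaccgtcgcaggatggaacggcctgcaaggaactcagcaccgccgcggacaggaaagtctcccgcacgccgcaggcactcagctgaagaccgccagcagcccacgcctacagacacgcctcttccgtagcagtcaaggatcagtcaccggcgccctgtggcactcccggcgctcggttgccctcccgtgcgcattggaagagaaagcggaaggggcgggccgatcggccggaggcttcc
A start site was given for 65 of the 74 members, and this core was found in the 250 bases before it in 2 (3.08%), beside 2.41% of all 27025 genes with a start site and 2.74% of the 8199 listed ones. Those 2 were Mrpl20 (chr4:155802792-155802821) and Mrpl34 (chr8:71464780-71464809), shown here with the core, or its reverse complement, in capitals.
Mrpl20: tcatactctCCAGAAGAGGGCgtcagatct
Mrpl34: cattcgttcGCCCTCTCCTGGtcattttgg
Neither gene was called between the arms, with mean IAA differences over 20 to 60 min of -0.05 ± 0.09 for Mrpl20 and -0.20 ± 0.11 (SE) for Mrpl34. Of 4 other motifs, the ETS letters CCGGAAG were in 17 members (26.2%, beside 17.2% of listed genes), the NRF1 motif in 8 (12.3%, beside 10.2%), the E-box CACGTG in 5 (7.69%, beside 10.8%) and YY1 AAGATGGC in 3 (4.62%, beside 2.62%). Both strands were searched, each motif was counted on its own whether or not matches overlapped, and binding was not measured here.

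Mrps2 in asynchronous cells was at 1.23, 1.22 and 0.981 TPM without IAA and at 0.335, 0.540 and 0.756 TPM with it. In mitosis it was at 0.609, 0.464 and 0.129 TPM without and at 0.170, 0.0490 and 0.113 TPM with IAA. The arms did not overlap in asynchronous cells but did in mitosis. At 20 min it was at 0.960 and 0.164 TPM without IAA, and with IAA was listed at 0 in 1 library and at 0.0673 TPM in the other. At 40 min the values were 2.01 and 1.20 TPM without and 0.934 and 0.420 TPM with IAA, and at 50 min 3.02 and 3.09 against 1.15 and 1.03 TPM. The arms were apart at each of these stages and the gap widened in TPM up to 60 min. At 60 min Mrps2 was at 2.77 and 3.04 TPM without and 0.908 and 0.837 TPM with IAA. At 90 min it was at 2.76 and 2.40 against 0.607 and 0.510 TPM, and at 120 min at 1.57 and 1.96 against 0.423 and 0.547 TPM. The mean without IAA was 2.10 times that with IAA in asynchronous cells, 3.33 times at 60 min, 4.62 times at 90 min and 3.64 times at 120 min.

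On the log2 scale the IAA difference of Mrps2 was -0.96 ± 0.19 at 50 min (SE; limma, adjusted p = 0.0192) and -1.06 ± 0.19 at 60 min (adjusted p = 0.00617), then -1.20 and -0.89 at 90 and 120 min (0.000779 and 0.018). With libraries divided by their step factor the differences at 50 and 120 min were -0.89 ± 0.20 and -0.82 ± 0.20, and Mrps2 lost both calls (adjusted p = 0.146 and 0.118, limma). With the same sum it lost that at 50 min (-0.84 ± 0.21, 0.105). With a pseudocount of 0.1 the differences there were -1.41 ± 0.49 and -1.67 ± 0.49, and of the single stages Mrps2 was called at 90 min alone. It did not pass in asynchronous cells (-0.48 ± 0.15, adjusted p = 0.303, limma). Averaged over 20 to 60 min it was -0.80 ± 0.093 (limma, adjusted p = 1.42e-05), the lowest of all 10237 genes. This difference was negative in 8 of 8 pairs of libraries, which share replicate numbers across stages and are not independent, here and below. Without replicate 1 it was -0.73 with an adjusted p of 0.296 (limma) and ranked 3 from the lowest. The difference after release was not shown to exceed that in asynchronous cells (-0.32, unadjusted p = 0.084, limma) or in mitosis (-0.48, unadjusted p = 0.0124, adjusted p = 1.00, limma, a contrast added after the data were seen). Mrps2 still rose after mitosis with IAA, by 0.74 ± 0.16 at 60 min, and in CCNA-GFP cells, made in a separate table, it was at 1.97, 1.15 and 1.71 TPM in asynchronous cells.

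Mrpl23 in asynchronous cells was at 1.12, 1.02 and 1.13 TPM without and 0.453, 0.366 and 0.443 TPM with IAA. In mitosis it was at 0.696, 0.635 and 0.725 against 0.639, 0.539 and 0.518 TPM. The arms were clearly apart in asynchronous cells and overlapped in mitosis, as they did at 20 min (0.764 and 0.375 against 0.701 and 0.224 TPM) and 40 min (0.633 and 0.442 against 0.489 and 0.376 TPM). From 50 min they were apart again, with 0.853 and 0.780 TPM without and 0.482 and 0.327 TPM with IAA, then 1.19 and 0.657 against 0.409 and 0.345 TPM at 60 min. At 90 min it was at 1.29 and 1.42 against 0.539 and 0.371 TPM, and at 120 min at 1.37 and 1.29 against 0.334 and 0.422 TPM. With IAA Mrpl23 was at or below its mitotic range from 40 min on, while without IAA both libraries at 90 min were above its asynchronous values. The log2 difference was -0.56 ± 0.10 in asynchronous cells (adjusted p = 0.00352, limma), -0.70 at 90 min (0.00427) and -0.76 at 120 min (0.00225), with a mean without IAA 2.59, 2.98 and 3.51 times that with it. Over 20 to 60 min it was -0.26 ± 0.064 (adjusted p = 0.0458, limma), lower in 8 of 8 pairs, but lost the call with libraries scaled to the same sum (adjusted p = 0.176, limma) or divided by their step factor (0.24). That was smaller than in asynchronous cells by 0.29 (unadjusted p = 0.024, limma), which did not pass over all genes.

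Mrps16 moved the other way. In asynchronous cells it was at 1.34, 0.891 and 1.09 TPM without and 1.93, 1.50 and 1.68 TPM with IAA. In mitosis it was at 0.783, 0.561 and 0.621 against 0.745, 0.515 and 0.788 TPM, and the arms overlapped. At 20 min it was at 0.764 and 0.351 against 1.03 and 0.628 TPM and at 40 min at 2.42 and 1.47 against 3.22 and 2.19 TPM, again with overlap. At 50 min it was at 3.11 and 3.25 against 6.01 and 6.61 TPM, and at 60 min at 3.26 and 2.34 against 5.97 and 5.32 TPM. At these stages the arm with IAA had 1.98 and 2.02 times the mean of the other. The arms remained apart at 90 min (2.59 and 3.26 against 4.45 and 5.34 TPM) and 120 min (2.33 and 1.87 against 4.01 and 3.68 TPM). The log2 difference was 0.81 ± 0.17 at 50 min (adjusted p = 0.0375, limma) and 0.82 at 60 min (0.034), and 0.55 ± 0.085 over 20 to 60 min (0.000412), higher in 8 of 8 pairs and rank 5 from the highest of all genes. Divided by their step factors, the libraries gave 0.86 ± 0.20 at 50 min and 0.80 ± 0.20 at 60 min, with an adjusted p of 0.15 and 0.212 (limma), so that Mrps16 no longer met the combined rule. It did not pass at 90 min (0.59, adjusted p = 0.221, limma) or 120 min (0.65, 0.126), but was called at both with the replicate block. In CCNA-GFP cells Mrps16 was at 0.488, 0.498 and 0.562 TPM in mitosis and 2.74 and 1.87 TPM at 60 min.

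**Figure D3:**
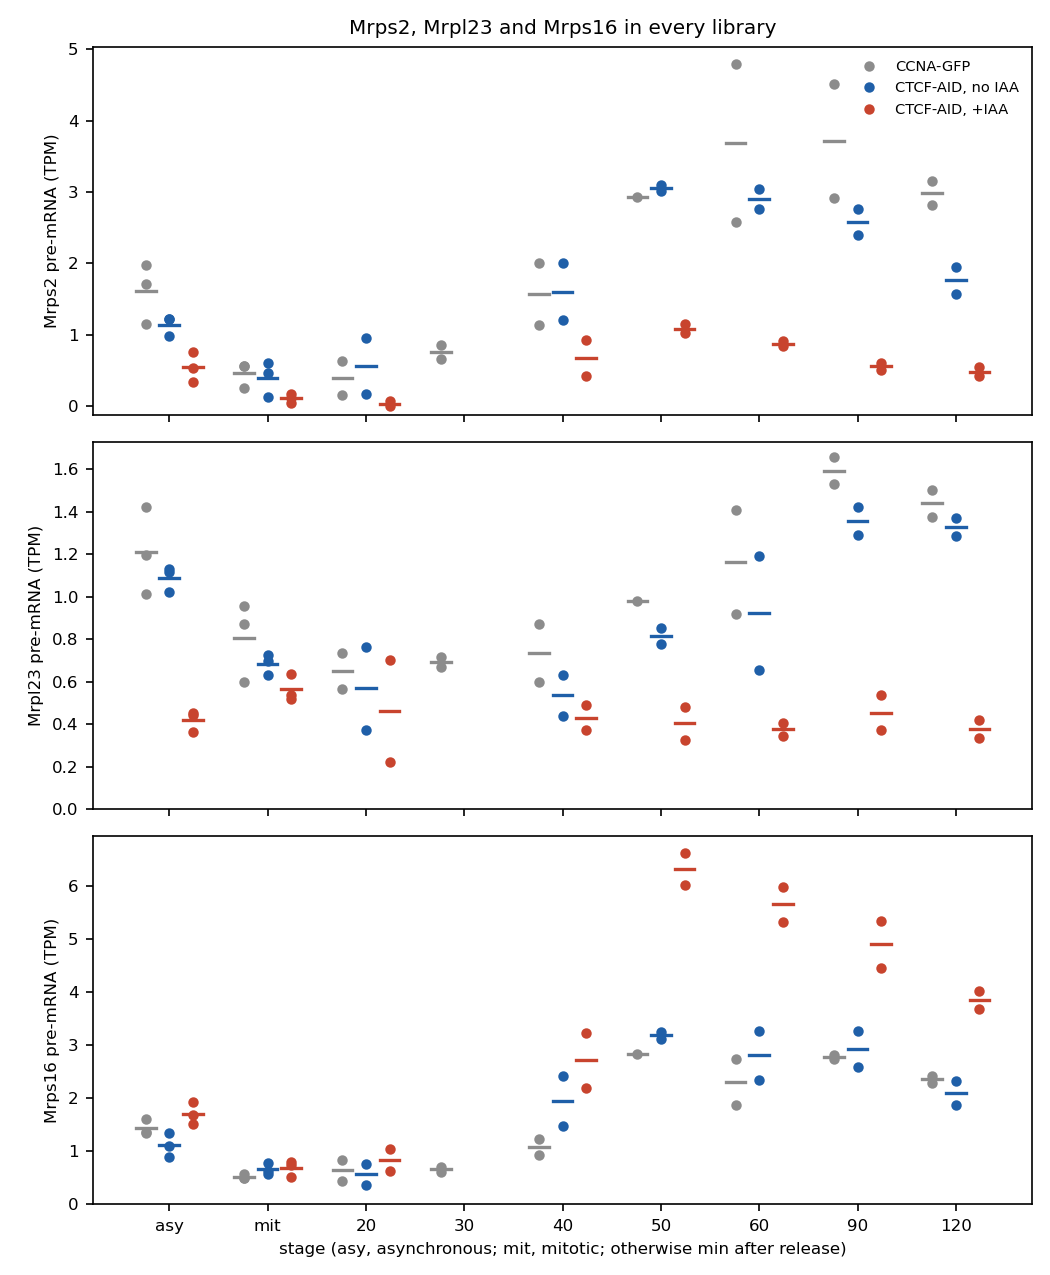
Pre-mRNA level (vertical, TPM) of Mrps2, Mrpl23 and Mrps16 in every library by stage (horizontal) for CCNA-GFP cells and CTCF-AID cells without and with IAA; points are libraries and dashes are means. At 60 min Mrps2 is at 2.77 and 3.04 TPM without and 0.908 and 0.837 TPM with IAA, and Mrps16 at 3.26 and 2.34 against 5.97 and 5.32 TPM.

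By stage, asynchronous cells gave 1 called member, Mrpl23 (0.694% of all genes lower and 0.313% higher). Mitosis, 20 min and 40 min gave 0 (0% of all genes), with 1, 2 and 2 members at an unadjusted p under 0.05 in limma's test. At 50 min Mrps2 was lower (0.195%) and Mrps16 higher (0.0879%), and the same pair was called at 60 min (0.166% and 0.0586%). At 90 min (0.557% lower, 0.176% higher) and 120 min (0.459% and 0.127%) the called members were Mrps2 and Mrpl23. On the mean over 20 to 60 min all 3 were called (0.781% and 0.215%). With replicate 1 left out, which leaves some groups with 1 library, calls were lost over the whole table and not for these 3 genes alone. The differences at 50 min in that fit were -1.01 for Mrps2 and 0.84 for Mrps16. Without replicate 3, which also leaves some groups with 1 library, Mrpl23 and Mrps16 no longer met the combined rule. The differences at 50 min were then -0.90 for Mrps2 and 0.77 for Mrps16. With a pseudocount of 0.1 in place of 1 the combined rule left 1 of these genes, Mrpl23. Calls over all genes were then 107 in asynchronous cells, beside 103 with a pseudocount of 1. At 50, 60, 90 and 120 min they were 14, 16, 55 and 51, beside 29, 23, 75 and 60. With the replicate number as a block, which the libraries' shared deviations allow, Mrpl23 was added at 50 and 60 min, Mrps16 in asynchronous cells, at 90 min and at 120 min, and Mrps26 at 90 min. Calls over all genes rose with this block too, from 103 to 249 in asynchronous cells. At 50, 60, 90 and 120 min they rose from 29, 23, 75 and 60 to 101, 103, 175 and 146.

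None of the other 71 members was called at any stage in the fit without a block. In simulated data a log2 difference of 0.5 at 60 min was recovered in 37.5% of changed genes, so differences of that size could be missed. Mrps26 came nearest, at 90 min, with 0.701 and 1.26 TPM without and 1.46 and 1.74 TPM with IAA and no overlap (0.40 ± 0.11, adjusted p = 0.144, limma). It was called there with the replicate block (adjusted p = 0.0451), with libraries scaled to the same sum (0.046) and divided by their step factor (0.0764), and its mean difference over 20 to 60 min was -0.01 ± 0.055. Mrps26 was singled out after its values were seen. The lowest of their mean IAA differences over 20 to 60 min was -0.20, the median -0.02 and the highest 0.16, and 64 of them lay within 0.1 of zero. The standard errors of these differences ran from 0.043 to 0.146. The lowest adjusted p among them was 1.00 in limma's test, and Mrpl10 was the 1 gene with an unadjusted p under 0.05. Mrpl10 was lower with IAA in 8 of 8 pairs, by -0.18 ± 0.079. Lower still, but with larger errors, were Mrpl34 (-0.20 ± 0.11, lower in 5 of 8 pairs) and Mrpl53 (-0.19 ± 0.15, lower in 5 of 8), which shares its strand with an overlapping gene model. The highest were Mrpl43 (0.16 ± 0.10, higher in 7 of 8) and Mrps12 (0.13 ± 0.15, higher in 6 of 8). The median of all 74 members was -0.02, beside -0.03 for all genes. Members whose libraries did not overlap between the arms numbered 1 higher and 2 lower with IAA in asynchronous cells (2.51% and 2.05% of all genes) and 1 and 3 in mitosis (0.391% and 1.48%). Higher with IAA at 20, 40, 50, 60, 90 and 120 min were 1, 0, 19, 5, 8 and 10 (beside 1.48%, 2.4%, 12.9%, 7.56%, 4.05% and 7.09% of all genes). Lower at those stages were 7, 7, 5, 8, 7 and 11 (beside 13.9%, 14.5%, 11.2%, 14.4%, 5.79% and 9.68%).

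**Figure D4:**
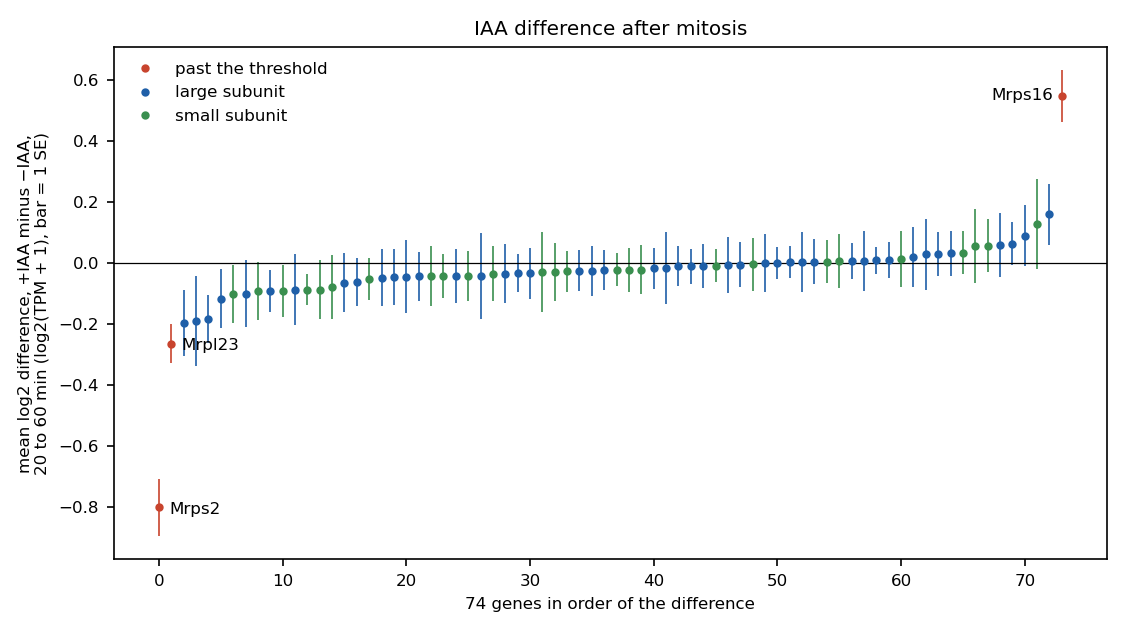
Mean difference between the arms with and without IAA over 20 to 60 min (log2(TPM + 1)) for the 74 members in order, with bars of ±1 SE. Mrps2 (-0.80), Mrpl23 (-0.26) and Mrps16 (0.55) stand outside the band from -0.20 to 0.16 that holds the other 71.

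Genes around the 3 were looked at within 200 kb. Of listed genes there, Mrps2 had 5, Mrps16 had 7 and Mrpl23 had 1, Ctsd, which encodes the lysosomal protease cathepsin D. None of these neighbours was called between the arms at any stage. Their mean differences over 20 to 60 min ran from -0.13 to 0.00 around Mrps2 and from -0.08 to 0.11 around Mrps16, and Ctsd was at -0.04. The imprinted gene H19 lies 34.8 kb from Mrpl23 (chr7:142575529-142578143) and was not analysed here. Dnajc9 is 0.394 kb from Mrps16, and was not called.

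The rest of the mitochondrial translation machinery was read from lists by role, beside 88.3% of all genes called higher at 60 min in CCNA-GFP cells and 84.8% without IAA. Mitochondrial ribosome proteins with other names, such as Dap3, rose in 5 of 5 cases at 60 min in CCNA-GFP cells (median 1.14) and 5 of 5 without IAA (0.84). Translation factors rose in 13 of 13 (0.52) and 9 of 13 (0.43), and assembly factors in 19 of 19 (0.89) and 16 of 18 (0.61). Cytosolic ribosomal protein genes rose in 39 of 40 cases with 1 lower (median 0.91) in CCNA-GFP cells, and in 25 of 40 with 1 lower (0.58) without IAA. Between the IAA arms, 1 of 36 listed genes of these mitochondrial lists was called by the combined rule (1.1% of all genes), Gfm1, the elongation factor that moves the mitochondrial ribosome along the mRNA. Gfm1 was at 2.27, 1.85 and 2.70 TPM in asynchronous cells without IAA and at 0.984, 0.809 and 1.14 TPM with it, and the arms did not overlap. At 90 min it was at 3.46 and 3.76 TPM without and 1.57 and 1.83 TPM with IAA. The log2 difference was -0.72 ± 0.15 in asynchronous cells (adjusted p = 0.00775, limma), -0.77 at 90 min (0.0448), -0.74 at 120 min (0.0719) and -0.49 ± 0.090 over 20 to 60 min (0.00358). Without replicate 1, which leaves some groups with 1 library, these calls of Gfm1 were lost, as were those of all other genes there. Tsfm, the mitochondrial elongation factor Ts, passed the adjusted p over 20 to 60 min (0.0498, limma) with a difference of -0.195 ± 0.048, just inside the size limit of 0.2, and was not called.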

How the data were processed

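RNA was sequenced from 55 libraries of 2 mouse embryonic stem cell lines. The deposited values are TPM of pre-mRNA, which the authors computed from stranded, rRNA-depleted libraries with STAR and RSEM on mm10 and Gencode M12, to which they added an unspliced form of each gene. They kept RefSeq curated genes whose mean passed 0.5 TPM either without synchronisation or at 2 or more times after release, so members under that level are not analysed here. The 2 tables were made separately, so lines were set side by side with no test. Every value above 0 and below 5 TPM was a whole multiple of 0.01 times a factor of its library (100% of these values, to within 0.01 of a step; 2.17 to 3.81 in CCNA-GFP and 1.84 to 2.80 in CTCF-AID libraries), a step factor not explained in the sources used here. TPM keeps no read total, so depth is unknown and no count test was run.

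Members were chosen by symbol. The members and lists were chosen with earlier results of these data known. log2(TPM + 1) was fitted on all listed genes with limma 3.58.1 (trend; R 4.3.3) and adjusted by Benjamini-Hochberg within each comparison. The replicate number was a block for comparisons between stages, and the comparison of arms had no block. Replicate numbers come from the sample titles, and the study's methods speak of the samples of a replicate as a unit. Deviations from group means correlated above 0.1 for every pair of groups sharing 2 or more numbers (lowest 0.236 over 20 pairs of CCNA-GFP stages, 0.289 over 80 of CTCF-AID stages, 0.513 over 8 pairs of arms), so the numbers were taken to pair libraries. The study's methods call the replicates independent, and the labels do not say how they were kept apart. Replicates of a group correlated at a Spearman's rho of 0.918 to 0.984 over 36 pairs, and no such pair was identical.

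Named genes were those called between arms, the lowest 5 and highest 3 mean IAA differences, the largest and smallest 5 changes at 60 min and the highest and lowest 3 levels in CCNA-GFP cells, those called lower than in mitosis, and those highest in asynchronous cells in both lines. Positions came from Gencode M21 (GRCm38) and start-site sequences from RefSeq (GRCm38.p6; 65 of 74 members). Fits were tested on simulated data. Between the arms at 60 min, simulated log2 differences of 1 and 0.5 were recovered in 93.5% and 37.5% of changed genes. False calls were 10.5% and 8.54% of those made. Alternatives were another pseudocount, a filter at 1 TPM, 2 other scalings, the block, and each replicate left out. Pandas 2.3.3, numpy 2.4.6 and matplotlib 3.10.9 ran under Python 3.11.15.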

Additional observations from a re-analysis of the deposited data

Results flagged for a closer look

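Of the 26 genes named by rule, 5 had differences of opposite sign between groups in every pair of libraries, in 1 of 5 comparisons each, and only Mrpl40 without IAA and Mrpl53 in CCNA-GFP cells passed the test (limma) among the values given here. With 2 or 3 pairs a group, 1 of 74 members (1.35%) had such signs between the IAA arms at 60 min, beside 0.371% of all genes, and between the lines 6 (8.11%) in asynchronous cells, beside 7.19%, and 2 (2.7%) from 60 to 120 min, beside 5.15%. Mrpl23 at 60 min against mitosis was 0.18 higher on the log2 scale without IAA and -0.18 with it. The difference at this stage was not tested, and the IAA difference over 20 to 60 min less that in mitosis was -0.16 (limma, adjusted p = 1.00). The others set CCNA-GFP cells beside CTCF-AID cells without IAA, whose tables were made separately, and the difference was not tested for any of them. In asynchronous cells against mitosis, Mrpl40 was at 0.13 in CCNA-GFP cells and at -0.30 in CTCF-AID cells, Mrpl48 at 0.13 and -0.037, and Mrps33 at 0.13 and -0.10. Mrpl53, a short gene that overlaps a gene model on its own strand, was at 0.81 from 60 to 120 min in CCNA-GFP cells, where it went from 3.92 and 1.38 TPM to 6.61 and 3.72 TPM, and at -0.041 in CTCF-AID cells.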

How the results depend on the processing

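The rise after mitosis depended on the scale of the libraries. With every library scaled to the same sum of listed TPM, the members called higher than mitosis in CCNA-GFP cells were 21, 26 and 26 at 40, 60 and 120 min and 23 in asynchronous cells (23.7%, 36.4%, 28.7% and 24.8% of all genes), and those lower 19, 26, 14 and 15 (31.3%, 33.3%, 23.5% and 20.3%). At 60 min 19 were higher and 26 lower than in asynchronous cells. The same scaling gave 28 higher at 40 and at 60 min without IAA, beside 25 and 27 lower, and 28 higher and 25 lower at 60 min with it. Falls from 60 to 120 min were 8 in CCNA-GFP cells and 6 without IAA. It set the median change at 60 min to 0.030 in CCNA-GFP cells and 0.035 without IAA, and reversed Mrpl1 (-0.78), Mrps27 (-0.92), Mrpl3 (-0.64) and Mrpl44 (-0.50) at 60 min in CCNA-GFP cells. This follows from its construction, since it takes out the rise of the sum. Dividing by the step factor gave 26 members higher at 60 min than in asynchronous CCNA-GFP cells. It gave 3 falls from 60 to 120 min in CCNA-GFP cells (13.9% of all genes) and 37 without IAA (58.9%). The median at 60 min in CCNA-GFP cells was then 0.71. A pseudocount of 0.1 set the medians at 60 min to 1.30 in CCNA-GFP cells and 0.98 without IAA, and left 1 member called between the arms by the combined rule, with all 3 still called on the mean over 20 to 60 min. The filter at 1 TPM gave a median of 0.72 without IAA and leaves Mrpl23 untested. For these the cause was not tested beyond the fewer genes of the filter.

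The replicate numbers were taken to pair the libraries. With no replicate block, 27 members rose at 40 min in CCNA-GFP cells, and falls from 60 to 120 min were 3 in CCNA-GFP cells and 13 without IAA. With the replicate block in the comparison of arms, 3 members were called by the combined rule, as without it.

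Leaving out each replicate number gave 30 to 38 members higher at 40 min in CCNA-GFP cells, 2 to 19 falls from 60 to 120 min there and 17 to 30 without IAA, and a median at 60 min of 0.62 to 0.71 without IAA. Between the arms it gave 0 to 3 called members on the mean over 20 to 60 min and 0 to 3 by the combined rule, 0 of them without replicate 1, which leaves some groups with 1 library that is assumed to vary like the others. Of the values of single genes, 484 kept direction and side of the threshold, 73 lost the call, 10 gained it, 14 moved and 4 reversed. Counts of members higher or lower between stages, with no block or with a replicate left out, have no share of all genes beside them here. A drop in these counts is therefore not read as particular to these genes. Depth is unknown, 2 libraries a group limit the smallest difference seen, and genes near 0 TPM have changes that depend on the pseudocount.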
